A study of Homo sapiens with 10 samples.

Results

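The azurophil granule genes considered here were MPO, ELANE, PRTN3, AZU1, CTSG, BPI, SRGN, RNASE2, MS4A3 and PRSS57. They were taken by symbol among the protein-coding rows of both expression tables, where all 10 were found once each, out of 19975 protein-coding genes and 60603 genes in all. RNA was sequenced from NB4 cells, a human line of acute promyelocytic leukemia. In the knockdown experiment the cells were transduced with pLKO.1 puro lentivirus holding no insert (group EV) or one of 2 hairpins against GSE1 (groups shA1 and shB2), with 2 libraries a group, taken 48 h after transduction. In the inhibitor experiment NB4 cells received vehicle (DMSO) or 2 µM MC2580, an inhibitor of the histone demethylase LSD1 (KDM1A), for 24 h, again with 2 libraries a group. The sample titles write the compound as MC280 and the treatment field as MC2580.

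Azurophil, or primary, granules are built while a neutrophil precursor is a promyelocyte, the stage at which acute promyelocytic leukemia cells are held. Transcription of many of their contents starts in that window and ceases as the cell moves on to specific and gelatinase granules. Those genes serve as stage markers. The granules store myeloperoxidase, serine proteases of the neutrophil elastase family, and antimicrobial proteins, packed on a proteoglycan matrix, and they deliver them to the phagosome.

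The values are base means: for each gene, the authors' mean of normalised read counts over all libraries of an experiment, that is, over 6 libraries (EV, shA1 and shB2 together) or over 4 libraries (DMSO and MC2580 together). Each base mean thus mixes control and perturbed libraries, and no value of a single library, SD or test is given here. Whether GSE1 silencing or MC2580 changed a member, and whether the replicates agreed, was therefore not analysed here. Base means summed to 40543130 over all genes in the knockdown experiment and to 41201112 in the inhibitor experiment, and the depth of single libraries is unknown. The targeted genes were both transcribed, GSE1 with base means of 2963 and 4441 and KDM1A with 7648 and 6285 in the knockdown and inhibitor experiments, values that cannot check the silencing. Levels of different genes are compared per kb of transcript, using the canonical transcript of GENCODE release 44 on GRCh38.

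Of the 5 members that belong to the granule serine protease family, 4 had more than 10 times the median level of protein-coding genes per kb. So did 24.1% and 24.6% of all protein-coding genes in the knockdown and inhibitor experiments. The bases just before the transcription starts of those 4 members are shown as a description. ELANE, the other member of the family, had no entry among the promoter windows used. Whether these bases bear on the levels was not tested. PRSS57, AZU1 and PRTN3 lie on chromosome 19 and CTSG on chromosome 14. The windows hold the 250 bases before the RefSeq start on GRCh38.p14, 5′ to 3′ on the gene's strand, at chr19:695453-695702 (minus strand) for PRSS57, chr19:827587-827836 (plus) for AZU1, chr19:840749-840998 (plus) for PRTN3 and chr14:24576251-24576500 (minus) for CTSG. Capitals mark matches on either strand to motifs of 4 kinds, and no match overlapped another. The motif searched for PU.1 was GAGGAA. For the C/EBP family, factors of granulocyte development, it was TTNNGNAA. The RUNX motif searched was TGTGGT, and the letters searched for a TATA box were TATAAA.
PRSS57: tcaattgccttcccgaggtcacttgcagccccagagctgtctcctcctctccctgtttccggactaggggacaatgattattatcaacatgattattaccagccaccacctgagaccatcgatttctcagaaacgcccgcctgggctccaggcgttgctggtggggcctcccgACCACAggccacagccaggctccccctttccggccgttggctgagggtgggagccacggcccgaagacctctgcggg
AZU1: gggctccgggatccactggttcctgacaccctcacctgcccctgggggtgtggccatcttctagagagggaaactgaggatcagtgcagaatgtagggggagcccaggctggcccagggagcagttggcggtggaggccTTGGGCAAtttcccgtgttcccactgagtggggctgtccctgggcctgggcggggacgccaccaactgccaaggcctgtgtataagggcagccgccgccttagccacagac
PRTN3: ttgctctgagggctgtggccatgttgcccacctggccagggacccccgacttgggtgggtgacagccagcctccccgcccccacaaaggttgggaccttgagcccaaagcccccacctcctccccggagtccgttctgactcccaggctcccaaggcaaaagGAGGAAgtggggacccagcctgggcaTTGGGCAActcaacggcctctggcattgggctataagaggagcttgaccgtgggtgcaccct
CTSG: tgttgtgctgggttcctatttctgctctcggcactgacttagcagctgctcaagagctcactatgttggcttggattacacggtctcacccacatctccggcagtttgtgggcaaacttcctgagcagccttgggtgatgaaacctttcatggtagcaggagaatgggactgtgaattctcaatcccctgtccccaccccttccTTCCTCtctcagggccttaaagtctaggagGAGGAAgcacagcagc

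The PRTN3 window held 1 PU.1 match, from 88 to 83 bases before the start, and 1 C/EBP match, from 62 to 55 bases before it. The AZU1 window held 1 C/EBP match, 111 to 104 bases before the start. Both C/EBP matches were spelled TTGGGCAA, a run noticed after the search and present in 0.780% of 27305 promoter windows of the same length. CTSG held 2 PU.1 matches, on opposite strands, and PRSS57 held 1 RUNX match. No window held TATAAA. The PRTN3 and AZU1 windows hold TATAAG, which differs in the last letter and was not searched. The exact search thus cannot tell whether a window has a TATA box. Of the 6 members with a promoter entry, the other two being RNASE2 and MS4A3, 2 held GAGGAA, 4 held TTNNGNAA, 1 held TGTGGT and 0 held TATAAA, beside 23.4%, 33.6%, 10.9% and 11.1% of all windows. The matches are a description of letters and not of factor binding.

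MPO encodes myeloperoxidase, the heme enzyme that makes hypochlorous acid and the defining protein of the azurophil granule. Its base mean was 506765 in the knockdown experiment and 824818 in the inhibitor experiment. By base mean it was the highest of the 19975 protein-coding genes in both, at 1.59 and 2.10 times the next gene, and it took 1.25% and 2.00% of the summed base means. Per kb of its transcript of 3216 bases, the level of MPO was 157576 and 256473 normalised counts, which placed it 9th and 6th of 19887 genes with a length. MPO alone made up 87.8% and 91.5% of the summed base means of the 10 members. The gene (ENSG00000005381.7) has 12 exons on chromosome 17, from 58269855 to 58280935 on the minus strand.

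**Figure D1:**
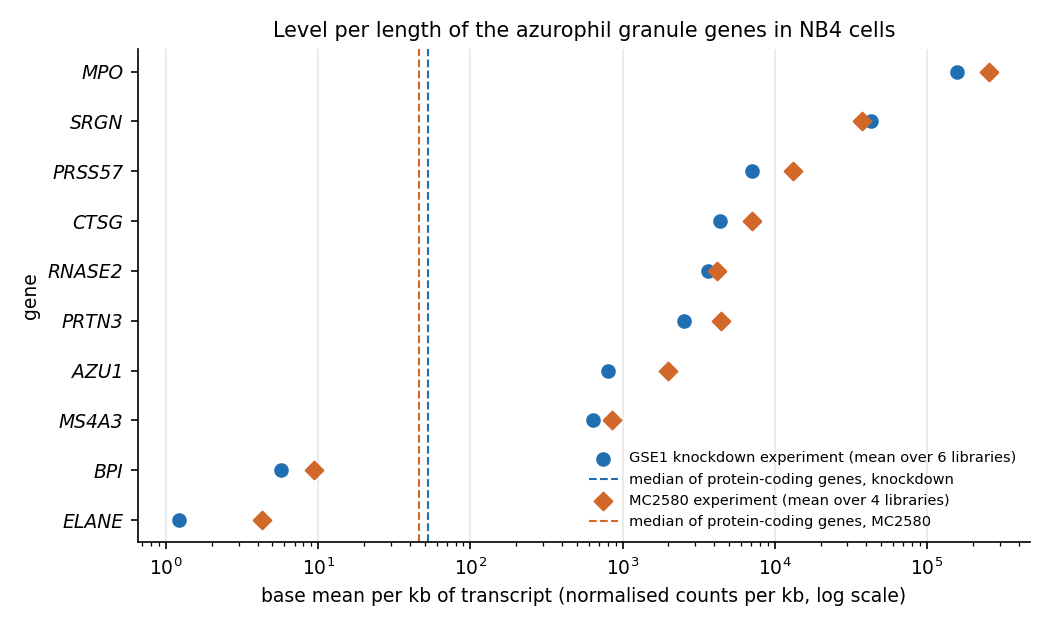
Level of each azurophil granule gene in normalised counts per kb of transcript, on a log scale, as the mean over 6 knockdown libraries (circles) and over 4 inhibitor libraries (diamonds). MPO and SRGN stood highest, BPI and ELANE lay below the median of all protein-coding genes (dashed lines, 52.4 and 46.1), and no error bars are drawn because only means over whole experiments were used.

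SRGN encodes serglycin, the proteoglycan core protein whose chains hold basic proteases and other granule cargo. It had base means of 52171 and 45423 in the knockdown and inhibitor experiments, the second highest level of the members per kb, 42868 and 37324. MPO lay 3.68 and 6.87 times above it on that scale. SRGN ranked 61st and 82nd per kb, so MPO and SRGN were the 2 members among the first 100 genes in both experiments. SRGN (ENSG00000122862.5) has 3 exons on chromosome 10, from 69088103 to 69104805 on the plus strand.

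The levels of the serine protease family spread widely. PRSS57, the granule protease also known as NSP4, led them with base means of 7349 and 13804, or 7059 and 13261 per kb. CTSG, cathepsin G, followed with base means of 4012 and 6435, or 4390 and 7040 per kb. PRTN3, proteinase 3, had base means of 2511 and 4358, or 2544 and 4416 per kb. AZU1 encodes azurocidin, a family member without protease activity, and had base means of 723 and 1814, or 797 and 2000 per kb. Per kb, PRSS57 lay 2.77 and 3.00 times above PRTN3, and PRTN3 lay 3.19 and 2.21 times above AZU1. The order PRSS57, CTSG, PRTN3, AZU1 was the same in both experiments, but with no spread over libraries it cannot be said which of these neighbours differ beyond replicate error.

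ELANE, neutrophil elastase, stood apart from its relatives. Its base means were 1.10 and 3.87, which correspond to 6.60 and 15.5 normalised counts summed over the 6 and 4 libraries. Per kb, ELANE was at 1.21 and 4.26, below the medians of 52.4 and 46.1 over protein-coding genes, and it ranked 13640th and 12402nd. PRTN3 had 2103 and 1037 times the level of ELANE per kb, and AZU1 had 659 and 470 times. The sizes of these ratios rest on the few counts of ELANE. Of the 10 granule genes taken as markers of the labelled promyelocytic state, 8 were above the median of protein-coding genes, while ELANE and BPI were not. In bulk RNA, fewer cells that transcribe a gene and less RNA per cell cannot be told apart.

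ELANE was compared with the protein-coding genes on the AZU1 side of it, as far as PRSS57, and its neighbour on the other side was not analysed here. AZU1 (ENSG00000172232.10, 825097 to 832018), PRTN3 (ENSG00000196415.10, 840999 to 848175) and ELANE (ENSG00000197561.7, 851014 to 856247) follow each other on the plus strand of chromosome 19 within 31.2 kb. No other protein-coding gene lies between them, and the gap between PRTN3 and ELANE is 2838 bases. These extents cover all GENCODE transcripts of a gene, whereas the windows printed above end at the RefSeq start, so that the AZU1 window lies inside the extent of its gene and the PRSS57 window overlaps it in part. PRSS57 (ENSG00000185198.11, 685546 to 695498, minus strand) lies on the same arm, 129598 bases before AZU1 and with 4 protein-coding genes in between. Those 4 genes ranged from 0.579 to 7315 per kb in the knockdown experiment and from 0.770 to 7903 in the inhibitor experiment, with medians of 869 and 1347. The lowest of them, MISP, lay below ELANE in both experiments. Within the cluster the drop in level lay between PRTN3 and ELANE in both experiments. CTSG (ENSG00000100448.4) lies on the minus strand of chromosome 14, from 24573518 to 24576250, and the 5 protease genes have 5 exons each.

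**Figure D2:**
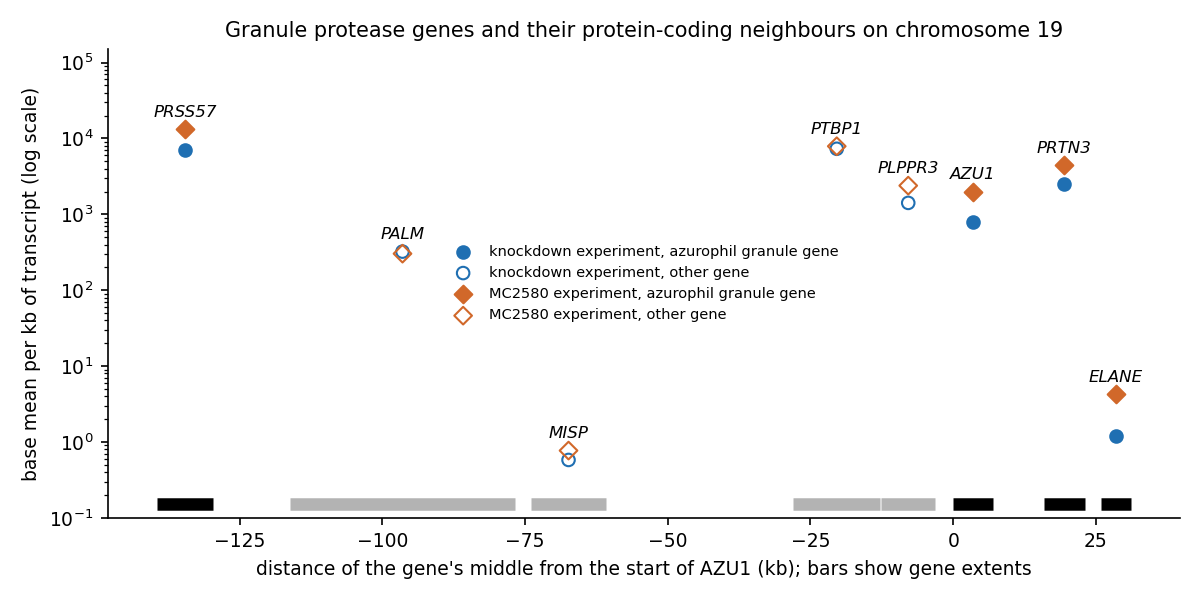
Level per kb of transcript (log scale) of the 8 protein-coding genes from PRSS57 to ELANE on chromosome 19, against the distance of the gene's middle from the start of AZU1 in kb, with bars for the gene extents. Filled symbols are azurophil granule genes, open symbols are other genes, circles are means over 6 knockdown libraries and diamonds means over 4 inhibitor libraries. AZU1 and PRTN3 lay between 797 and 4416 and ELANE at 1.21 and 4.26.

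BPI encodes the bactericidal/permeability-increasing protein, which binds lipopolysaccharide of Gram-negative bacteria and is made late among the azurophil proteins. Its base means were 10.6 and 17.2, or 5.74 and 9.34 per kb, and it was the other member below the median of protein-coding genes. BPI (ENSG00000101425.13) has 15 exons on chromosome 20, from 38304150 to 38337505 on the plus strand.

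RNASE2 encodes the eosinophil-derived neurotoxin, a ribonuclease shared by eosinophils and early neutrophil precursors. It had base means of 2611 and 3015, or 3627 and 4187 per kb, and took place 5 of the members per kb in the knockdown experiment and place 6 in the inhibitor experiment, trading places with PRTN3. Its close relative RNASE3 had base means of 337 and 344, or 459 and 469 per kb, and reads that fit both genes were divided between them by the authors' estimation. MS4A3 encodes a four-transmembrane protein of granulocyte-monocyte progenitors and had base means of 1039 and 1381, or 642 and 853 per kb, the lowest of the 8 members above the median. RNASE2 (ENSG00000169385.3) lies on chromosome 14 from 20955487 to 20956436, and MS4A3 (ENSG00000149516.14) on chromosome 11 from 60056587 to 60071115, both on the plus strand.

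Across the 10 members the median level was 3086 per kb in the knockdown experiment and 4301 in the inhibitor experiment, beside 52.4 and 46.1 over protein-coding genes. In both experiments 8 of the 10 members had more than 10 times the median level of protein-coding genes per kb, as did 24.1% and 24.6% of those genes. The ranks from 9 (MPO) to 13640 (ELANE) in the knockdown experiment show how widely the 10 members were spread.

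**Figure D3:**
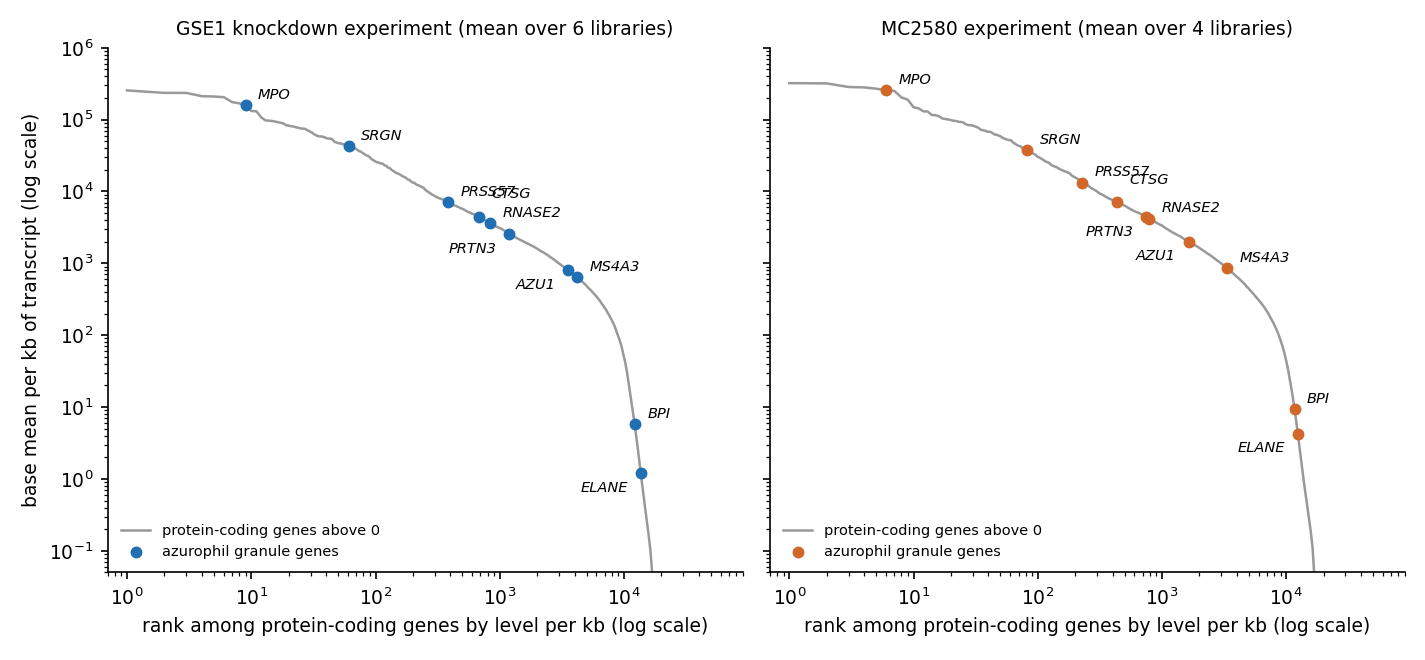
Level per kb of transcript against rank among protein-coding genes, both on log scales, for the knockdown experiment (left, mean over 6 libraries) and the inhibitor experiment (right, mean over 4 libraries). The grey line is all protein-coding genes above 0 and the points are the azurophil granule genes. BPI and ELANE lie on the steep lower end of the curve and the other 8 points on its upper arm.

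The experiments differed in transduction, hairpins, compound, time and libraries, and each table was normalised separately, so the following values are set side by side with no test and their source cannot be told apart. Levels were expressed as parts per 1000000 (ppm) of the summed base means. AZU1 had 17.8 ppm in the knockdown experiment and 44.03 ppm in the inhibitor experiment, a ratio of 2.47. PRSS57 had 181 and 335 ppm, a ratio of 1.85. PRTN3 had 61.9 and 106 ppm, a ratio of 1.71. These 3 genes of the protease family thus stood higher in the inhibitor experiment, as did CTSG and MPO. CTSG had 99.0 and 156 ppm, a ratio of 1.58, and MPO had 12499 and 20019 ppm, a ratio of 1.60. MS4A3 had a ratio of 1.31, RNASE2 of 1.14 and SRGN of 0.857, the last being lower in the inhibitor experiment. Where both base means reached 50, which 8 members did, a ratio over 1.5 was seen for 5, beside 5.57% of 10916 such protein-coding genes. The median ratio was 1.59 over these members and 0.938 over those genes. BPI and ELANE did not reach that level and had ratios of 1.60 and 3.46, which rest on few counts. A higher level in the inhibitor experiment was not particular to the members. LYZ (lysozyme) had base means of 4923 and 9248, while MMP9 (gelatinase B) went the other way with 15005 and 10398.

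**Figure D4:**
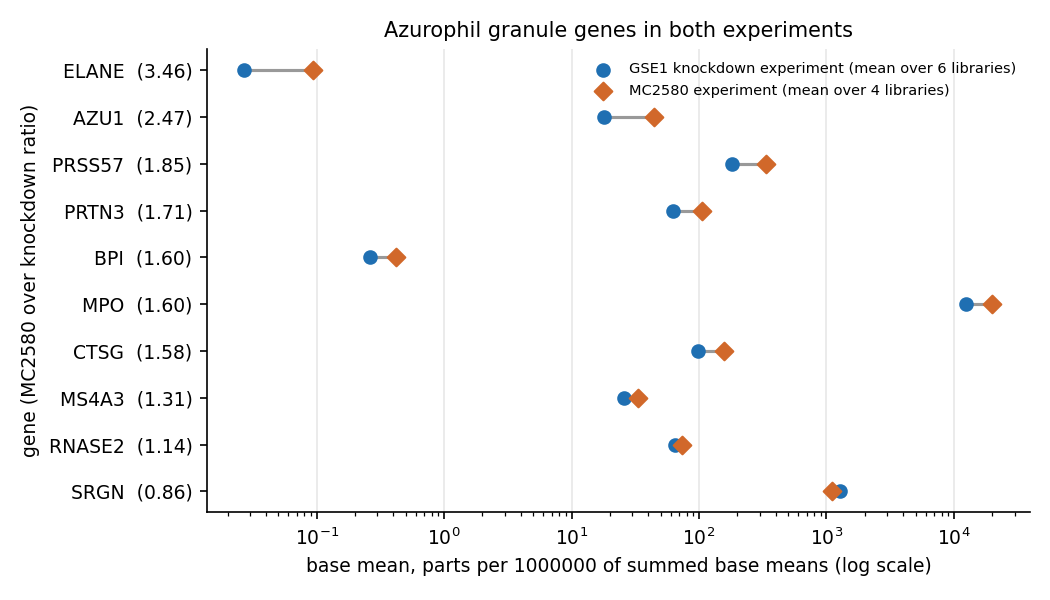
Base mean of each azurophil granule gene in parts per 1000000 of the summed base means (log scale) in the knockdown experiment (circles, mean over 6 libraries) and the inhibitor experiment (diamonds, mean over 4 libraries), ordered by the ratio printed beside the gene. MPO and 4 genes of the serine protease family had ratios from 1.58 to 2.47, and SRGN was the only member with a ratio under 1. The ratios of BPI, 1.60, and of ELANE, 3.46, rest on few counts.

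Genes that work with the azurophil granule proteins were listed as well. Of 4 defensin genes, whose peptides are the most abundant small proteins of mature azurophil granules, DEFA1 and DEFA1B were listed at 0 in both experiments, and DEFA3 was the highest with base means of 10.8 and 11.3. DEFA1, DEFA1B and DEFA3 are near-identical copies, so the division of reads among them is uncertain. Of 8 genes for processing, inhibition or the granule membrane, 5 had base means of at least 50 in both experiments. By comparison, 10916 of all 19975 protein-coding genes did so. The highest of the 8 per kb was CD63, a membrane protein of azurophil granules, with 7932 and 7202. CTSC, the dipeptidyl peptidase that activates the granule proteases, had 5830 and 4865 per kb. The lowest was PI3, the elastase inhibitor elafin, with base means of 0.590 and 0.586.

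All 8 transcription factors on the list had base means of at least 50 in both experiments, beside 10916 of 19975 protein-coding genes. The medians of the 8 were 1758 and 2245 per kb. MYB had the highest base means, 11269 and 14042, and the lowest were those of CEBPE in the knockdown experiment, 2263, and of RARA, the partner of PML in the fusion that defines this leukemia, in the inhibitor experiment, 3512. SPI1, which encodes PU.1, was the highest of them per kb with 5621 and 6724. CEBPA and CEBPE, of the C/EBP family that drives granule gene transcription, had 2500 and 2423 per kb and 1900 and 4196 per kb. Of 14 genes of the later neutrophil granules, 2 had base means of at least 50 in both experiments, namely MMP9 (gelatinase B) with 6423 and 4451 per kb and LYZ (lysozyme, which azurophil granules also hold) with 3304 and 6207 per kb. The other 12 ranged up to 43.3 as base means. In the knockdown experiment 5 of the 14 genes were listed at 0, LTF and LCN2 among them. In the inhibitor experiment 1 was, LCN2.

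**Figure D5:**
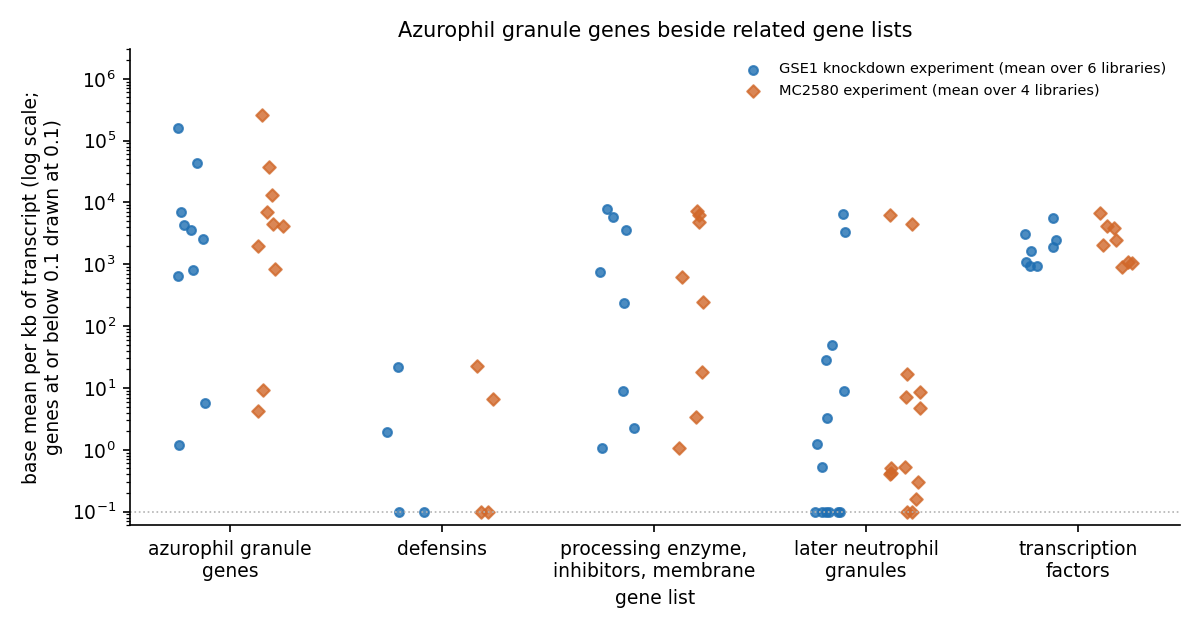
Level per kb of transcript (log scale) of each gene in 5 lists, for the knockdown experiment (circles, mean over 6 libraries) and the inhibitor experiment (diamonds, mean over 4 libraries), with genes at or below 0.1 drawn at 0.1. The transcription factors lay in a narrow band from 891 to 6724, the azurophil granule genes ran from 1.21 to 256473, and most later granule genes lay below 100.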

How the data were processed

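RNA-seq libraries of NB4 cells (10 libraries, 5 groups of 2) were made with a TruSeq RNA kit and sequenced on an Illumina instrument. The submitters' processing notes name bcl2fastq 2, FastQC 0.11.5, STAR 2.7 on hg38, RSEM and DESeq2, and the annotation release is not given in the sources used here. The deposited signal used here is the base mean, the authors' mean of counts divided by size factors over all libraries of an experiment (6 or 4). The tables also hold the authors' log2 fold changes, standard errors, statistics and p-values for shA1, shB2 and MC2580, which were not used. The test planned on counts per library was not run, because no values per library were available.

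Levels were computed with Python 3.11.15 and pandas 2.3.3 as base mean, base mean per kb (GENCODE 44 canonical transcript, matched on the Ensembl ID without version, 60261 of 60603 genes and all 10 members), rank among protein-coding genes, and base mean in parts per 1000000 of the summed base means. Ranks and ratios were tested on simulated data. Promoter windows came from RefSeq (GRCh38.p14), which matched 6 of 10 members. Members and lists were chosen with earlier results of these data known. Named genes were the 10 members, the highest and lowest of each list, GSE1 and KDM1A. CD63, SPI1, CEBPA, LYZ, RNASE3, CLC and MISP were named after their values were seen. Alternatives were the denominator of shares, the genes ranked, coding in place of transcript length, and the scaling between tables.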

Additional observations from a re-analysis of the deposited data

How the results depend on the processing

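No paired analysis was possible because the values used are means over whole experiments and carry no replicate number, and for the same reason the tests, size factors, count filters, leave-one-out fits and replicate block planned for counts per library were not run. The share of the summed base means taken by the members, 1.42% in the knockdown and 2.19% in the inhibitor experiment, was 1.45% and 2.23% over protein-coding genes, 1.49% and 2.30% without mitochondrial genes, and 1.44% and 2.24% of the sum without the members. Of 38 alternative ranks 37 stayed within 1.5 times the number of higher genes. The exception was ELANE in the knockdown experiment, with 22910 higher genes over all gene types against 14837 protein-coding ones, since that set is larger. ELANE has no rank once genes under a base mean of 10 are left out. With coding in place of transcript length, 14 of 20 places in the order of members were kept. In the knockdown experiment RNASE2 moved to place 4 and CTSG to 5, MS4A3 to 7 and AZU1 to 8, and in the inhibitor experiment RNASE2 moved to 5 and PRTN3 to 6, since transcripts differ in their noncoding length. The count of 5 members with a ratio over 1.5 between experiments and the direction of all 10 ratios were the same under both other scalings. Depth limits ELANE and BPI most.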

Other observations

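Among the markers of other blood lineages, the eosinophil and basophil list stood highest. PRG2, the major basic protein of eosinophil granules, had base means of 53954 and 55165 in the knockdown and inhibitor experiments, and its level per kb, 37704 and 38550, was close to that of SRGN. Of the 6 genes of that list 4 had base means of at least 50 in both experiments, as did 10916 of 19975 protein-coding genes. CLC had base means of 1.36 and 1.72, and CPA3, a mast cell protease, was listed at 0 in both. RNASE2 is itself shared with that lineage, and its base mean was 7.75 and 8.76 times that of RNASE3 on the scale of counts without length.

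The other marker lists were low apart from single genes. All 5 erythroid markers were listed at 0 in the inhibitor experiment, and HBB was the highest of them in the knockdown experiment with a base mean of 11.7. The highest monocyte marker was CSF1R, with base means of 668 and 729, and the lowest FCGR3A, with 0.256 and 0.207. The highest megakaryocyte marker was ITGA2B, with 660 and 549, while PF4 was listed at 0 in both. The highest T cell marker was CD3D, with 866 and 869, beside CD3E with 1.55 and 2.98. The highest B cell marker was CD79A, with 121 and 116, beside MS4A1 with 0.217 and 0. The highest epithelial or stromal marker was EPCAM, with 432 and 403, beside CDH1 with 0 and 0.859. The part of other cell types in the levels of the azurophil granule genes was not tested.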
